A study of Rattus norvegicus with 12 samples.

Results

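The comparison described here sets 3 libraries of NRK-52E cells given TGF-beta1 and then vesicles labelled 2D-EVs against 3 libraries of the same cells given TGF-beta1 without vesicles, 6 of the 12 libraries of the series. Its members were chosen by their labels alone, and all 24660 genes of the table entered it. NRK-52E is a single established line of rat kidney tubular epithelial cells. Per the labels, all treated cells received TGF-beta1 at 10 µg/ml (as written there; doses of this cytokine are commonly in ng/ml, so the unit may be wrong) for 24 h, and vesicle-treated cells then received 500000000 particles/ml for 48 h. The other 6 libraries were 3 of control cells, for which the labels name no agent, and 3 of cells given TGF-beta1 and then 3D-EVs at the same dose and time. The groups are called control, TGF-beta1, 2D-EV and 3D-EV cells. Not given in the sources used here are the cells that made the vesicles, when TGF-beta1 cells were harvested and whether TGF-beta1 stayed in the medium, so vesicles, added time in culture and any withdrawal of TGF-beta1 cannot be told apart. The labels do not say whether the 3 libraries of a group came from separate cultures, and every p-value below therefore rests on a spread between libraries that may be technical.

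TGF-beta1 is a cytokine that signals through a pair of receptor kinases to Smad transcription factors and, in kidney tubule cells, raises genes of matrix, of the contractile cytoskeleton and of the fibrotic response. Among them are Ccn2 (connective tissue growth factor, a secreted matricellular protein) and Acta2 (alpha smooth muscle actin, the usual marker of myofibroblast-like change). Tension in the contractile cytoskeleton also controls SRF, with its actin-sensing coactivators, and YAP, and their targets overlap with those of TGF-beta. Extracellular vesicles are membrane particles shed by cells that carry protein, lipid and RNA, and they are tested in such cultures as an antifibrotic agent.

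Library totals of the 6 libraries were 32888125 to 36703469 counts, mitochondrially encoded genes took 5.31% to 5.58% of them, and no library stood apart. Of the 24660 genes, 14184 had enough counts to be tested. Levels are given in CPM, a count divided by its TMM-scaled library total, and 1 count stood for 0.0275 to 0.0305 CPM in these libraries. Defining markers of the proximal tubule, Slc34a1, Slc22a6, Slc22a8, Hnf4a and Miox, were at 0 in all 6 libraries. The summed level of the 12 proximal tubule markers was 317 to 339 CPM in TGF-beta1 cells and 328 to 339 CPM in 2D-EV cells. That of 12 fibroblast and pericyte markers was 706 to 724 and 710 to 722 CPM. That of 12 mesenchymal stromal cell markers was 241 to 256 and 251 to 274 CPM. What these sums say of the identity of the cells was not tested. Of the immune markers, Ptprc, Itgam, C1qa, C1qb and Tyrobp were at 0 in both groups. The summed immune level of 248 to 255 CPM in TGF-beta1 cells and 222 to 234 CPM in 2D-EV cells was mostly Cd14, a lipopolysaccharide co-receptor. Of the 12 immune markers 4 were tested, and Cd14 and Lyz2 were lower in 2D-EV cells at an unadjusted p below 0.05; their part in the results was not tested.

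A total of 4 genes passed the test, and all were lower in 2D-EV cells: Ccn2, Acta2, Olr1 and Frmd4a. They were 4 of 14184 genes, or 0.0282%, at a Benjamini-Hochberg adjusted p below 0.05 in edgeR's quasi-likelihood test, and 0 genes rose. An unadjusted p below 0.05 was met by 1007 genes (7.1%), 491 higher (3.46%) and 516 lower (3.64%) in 2D-EV cells. A share of 0.05 of genes is expected at that level where none differ. The libraries of the groups did not overlap for 869 genes higher (6.13%) and 883 lower (6.23%). With so few libraries, such separation also arises in genes that do not differ. In bulk RNA, fewer cells that express a gene and less of its RNA per cell cannot be told apart.

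Ccn2 was at 4115, 4075 and 3990.5 CPM in the TGF-beta1 libraries against 3385, 3438 and 3529.9 CPM in the 2D-EV libraries. The lowest TGF-beta1 library lay above the highest 2D-EV library, and the spread within a group was small beside the gap. Ccn2 fell by 0.23 ± 0.03 on the log2 scale (SE; 95% interval -0.29 to -0.18, edgeR adjusted p = 0.00238), which is a fall of 15.0%. Control cells had 2823 ± 53.4 CPM (SD, n = 3), so 2D-EV cells kept a level 1.22-fold that of control cells (log2 0.29, edgeR adjusted p = 2.05e-06).

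Acta2 was at 853, 876 and 854 CPM in TGF-beta1 cells against 709, 731 and 730.2 CPM in 2D-EV cells, again without overlap. The gene fell by 0.25 ± 0.03 on the log2 scale (95% interval -0.32 to -0.18, edgeR adjusted p = 0.0102), or by 16%. With 585 ± 26.0 CPM in control cells (SD, n = 3), Acta2 in 2D-EV cells was 1.24-fold the control level (edgeR adjusted p = 1.21e-05).

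Olr1 encodes LOX-1, a scavenger receptor for oxidised low-density lipoprotein. Its levels were 57.2, 52.2 and 51.4 CPM in TGF-beta1 cells and 38.6, 37.1 and 35.9 CPM in 2D-EV cells. All 3 TGF-beta1 libraries lay above all 2D-EV libraries, and Olr1 fell by 0.53 ± 0.07 on the log2 scale (95% interval -0.68 to -0.37, edgeR adjusted p = 0.0117), or by 30.6%. Its level in 2D-EV cells was 1.49-fold that in control cells, which had 24.9 ± 2.39 CPM (SD, n = 3; edgeR adjusted p = 5.89e-05).

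Frmd4a encodes a FERM domain scaffold protein that takes part in epithelial polarity. It was at 31.5, 32.8 and 36.2 CPM in TGF-beta1 cells against 22.9, 24.3 and 25.2 CPM in 2D-EV cells, without overlap. It fell by 0.47 ± 0.07 on the log2 scale (95% interval -0.62 to -0.33, edgeR adjusted p = 0.0178), or by 28.0%, and 2D-EV cells kept 1.23-fold the control level of 19.7 ± 1.12 CPM (SD, n = 3; edgeR adjusted p = 0.00722).

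**Figure D1:**
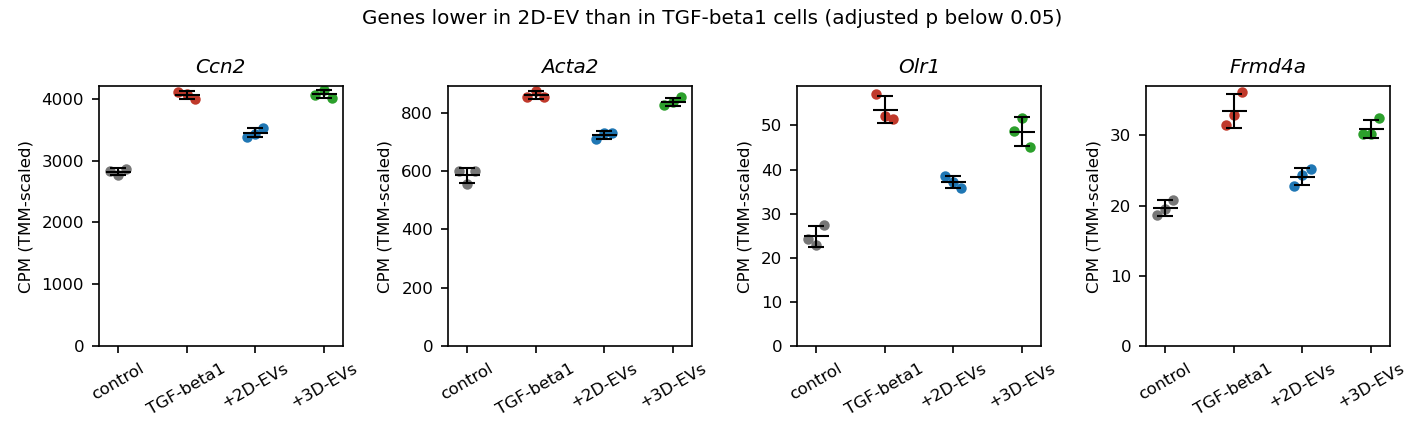
CPM of Ccn2, Acta2, Olr1 and Frmd4a in each of the 12 libraries (points) by group, with the mean and SD of 3 libraries (bars) on axes that start at 0. In each panel the 2D-EV libraries lie below all TGF-beta1 libraries and above all control libraries.

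The 4 calls differed in how they stood up when libraries were left out in turn. Ccn2 passed with any 1 of the 6 libraries left out, Acta2 in 3 of these 6 fits (without TGF-beta1 library 1 or 3, or 2D-EV library 3), Olr1 in 1 (without TGF-beta1 library 3) and Frmd4a in 1 (without TGF-beta1 library 1). Over the 6 fits the log2 fold change of Ccn2 stayed at -0.25 to -0.22, of Acta2 at -0.26 to -0.24, of Olr1 at -0.56 to -0.48 and of Frmd4a at -0.52 to -0.41, and their highest edgeR adjusted p-values were 0.0279, 0.0696, 0.0822 and 0.152. Frmd4a also did not pass in a fit of the 6 libraries of this comparison alone.

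Because these 4 genes fell together, the 250 bases before their start sites are shown, from RefSeq on GRCr8, a newer build than the mRatBN7.2 named for the counts. All 4 genes lie on the minus strand, and the sequences are written 5′ to 3′ along the gene. Capitals mark matches, on either strand, to GGAATG (a core bound by TEAD factors, the partners of YAP), to TGANTCA (AP-1) and to GTCTAGAC (the Smad palindrome), and matches to the CArG box (bound by SRF) with at most 1 base other than A or T in its core. These motifs were chosen with the sequences in view. Ccn2 is at chr1:22624615-22624864, Acta2 at chr1:241172504-241172753, Olr1 at chr4:164634548-164634797 and Frmd4a at chr17:78855877-78856126.
Ccn2: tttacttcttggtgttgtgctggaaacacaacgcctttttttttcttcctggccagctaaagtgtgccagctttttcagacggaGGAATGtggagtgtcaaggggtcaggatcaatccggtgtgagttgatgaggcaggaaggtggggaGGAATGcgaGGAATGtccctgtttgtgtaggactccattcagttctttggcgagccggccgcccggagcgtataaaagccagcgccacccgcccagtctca
Acta2: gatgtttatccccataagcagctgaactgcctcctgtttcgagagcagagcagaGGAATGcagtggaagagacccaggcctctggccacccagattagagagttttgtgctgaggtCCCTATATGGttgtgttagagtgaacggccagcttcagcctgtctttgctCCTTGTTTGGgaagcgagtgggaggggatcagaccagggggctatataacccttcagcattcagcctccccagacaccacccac
Olr1: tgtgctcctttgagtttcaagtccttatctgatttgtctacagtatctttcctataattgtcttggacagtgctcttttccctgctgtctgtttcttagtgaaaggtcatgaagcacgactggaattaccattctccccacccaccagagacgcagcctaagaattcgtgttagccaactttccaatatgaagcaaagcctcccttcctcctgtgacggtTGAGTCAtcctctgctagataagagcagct
Frmd4a: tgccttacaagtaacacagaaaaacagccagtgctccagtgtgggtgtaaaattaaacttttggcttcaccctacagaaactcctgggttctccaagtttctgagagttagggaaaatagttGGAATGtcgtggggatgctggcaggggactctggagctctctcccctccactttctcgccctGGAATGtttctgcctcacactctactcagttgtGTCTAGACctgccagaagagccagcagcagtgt
The Ccn2 window held 3 matches to GGAATG, starting 166, 101 and 92 bases before the start site. Acta2 held 1 such match and 2 CArG-like matches, which start 134 and 84 bases before the start site, and held no match to the strict CArG box. Frmd4a held 2 matches to GGAATG and 1 to GTCTAGAC, and Olr1 held 1 match to TGANTCA, 30 bases before its start site. Among 33469 RefSeq promoters of the same length, 12.1% held GGAATG, 6.34% TGANTCA, 0.173% GTCTAGAC, 8.08% the CArG-like form and 1.5% the strict CArG box. The motifs do not overlap each other in these 4 windows, and a match is a description of the letters only.

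Genes with an adjusted p just above the threshold are given next. F2r, the thrombin receptor PAR1, measured 541 ± 12.6 CPM in TGF-beta1 cells and 477 ± 8.00 CPM in 2D-EV cells (SD, n = 3), a log2 difference of -0.18 (edgeR adjusted p = 0.057). Cald1 (caldesmon, an actin-binding regulator of contraction) measured 924 ± 25.1 and 819.8 ± 12.7 CPM, a log2 difference of -0.17. Thbs1, a matrix protein that activates latent TGF-beta, was at 2365, 2466 and 2538 CPM in TGF-beta1 cells, and the 2D-EV libraries had 2135, 2043 and 1979 CPM. Its log2 difference was -0.26 (edgeR adjusted p = 0.057), with no overlap between the libraries.

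Edn1, the precursor of the vasoconstrictor endothelin-1, was at 181, 179 and 185 CPM in TGF-beta1 cells against 127, 148 and 150.2 CPM in 2D-EV cells, a log2 difference of -0.36. Cald1 and Edn1 also had an edgeR adjusted p of 0.057. Next came Lats2, a Hippo pathway kinase (log2 difference -0.18), Peg10, an imprinted gene derived from a retrotransposon (-0.31), Ccn1, a matricellular protein (-0.27), and Tagln, the actin-binding protein transgelin (-0.19), with adjusted p-values of 0.0961 for Lats2 and 0.101 for the other 3. limma-voom called 9 genes, all lower, among them the 4 that passed in edgeR with F2r, Cald1, Thbs1 and Edn1, and DESeq2 called 56 genes, 18 higher and 38 lower.

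Among genes higher in 2D-EV cells none passed the edgeR test. Ddit3, the stress transcription factor CHOP, came nearest, at 35.3, 33.2 and 35.01 CPM in TGF-beta1 cells and 42.2, 43.4 and 39.9 CPM in 2D-EV cells, a log2 difference of 0.28 (edgeR adjusted p = 0.0961). Control cells had 36.8 ± 0.97 CPM and 3D-EV cells 41.4 ± 0.97 CPM of Ddit3 (SD, n = 3). Chka (choline kinase, which starts phosphatidylcholine synthesis) measured 30.1 ± 1.33 and 36.6 ± 1.72 CPM, a log2 difference of 0.28, and in control cells it was at 29.3 ± 0.64 CPM (SD, n = 3). Rnf112, a ring finger protein gene, was at only 1.38 to 1.81 CPM in TGF-beta1 cells and 2.80 to 3.97 CPM in 2D-EV cells (log2 difference 1.03), against 5.06 to 6.77 CPM in control cells. Tst, the mitochondrial sulfurtransferase rhodanese, was at 2.31 to 2.84 CPM in TGF-beta1 cells, 3.73 to 4.33 CPM in 2D-EV cells and 9.13 to 9.72 CPM in control cells (log2 difference from TGF-beta1 cells 0.67). These 3 had an adjusted p of 0.101. The remaining genes ranked high by p were Acer2 (alkaline ceramidase, 0.51), Cpt1c (a brain-type carnitine palmitoyltransferase, 0.27), Garnl3 (0.41), Ddit4 (an inhibitor of mTORC1, 0.19) and Mtss1 (an actin and membrane scaffold, 0.31), given as log2 differences, with edgeR adjusted p-values of 0.15 to 0.206. DESeq2 called 18 genes higher, among them Ddit3 (DESeq2 adjusted p = 0.00219), Rnf112, Chka, Tst, Acer2, Garnl3, Ddit4 and Mtss1 but not Cpt1c. Its 18 also held Stat6, at a log2 difference of 22.1, which no other setting called. A value of that size is not a measured fold change, and the levels of Stat6 are not given here.

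**Figure D2:**
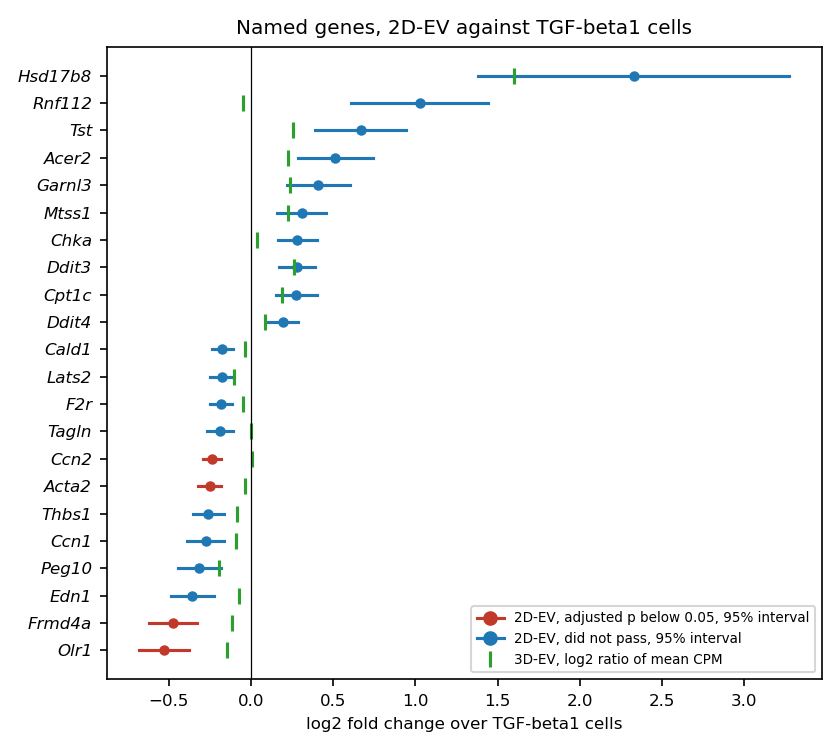
Log2 fold change of 2D-EV over TGF-beta1 cells with its 95% interval for the 4 genes that passed the test (red) and genes next by p in each direction (blue), with the log2 ratio of mean CPM of 3D-EV over TGF-beta1 cells as a green tick. RT1-CE2, with no count in the 2D-EV libraries, is left out. Among the genes drawn, Hsd17b8 has the widest interval, 1.38 to 3.27, and Ccn2 the narrowest.

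Of the panel of fibrosis genes, Ccn2 and Acta2 fell, and the collagen, fibronectin and vimentin genes did not pass the test. Col1a1, the main chain of type I collagen, was at 338, 364 and 364 CPM in TGF-beta1 cells against 403, 362 and 309 CPM in 2D-EV cells. These groups overlapped throughout, with a log2 difference of 0.01 and a 95% interval of -0.18 to 0.21. Fn1 (fibronectin) measured 935 ± 29.7 and 894 ± 74.3 CPM (log2 -0.06, interval -0.18 to 0.05), and Vim (vimentin) 2743 ± 16.6 and 2681 ± 131 CPM (log2 -0.03, interval -0.10 to 0.03; all SD, n = 3). Spp1, the secreted phosphoprotein osteopontin, measured 6374 ± 140 and 6230.2 ± 236 CPM, a log2 difference of -0.03.

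Col3a1, a fibrillar collagen lower in TGF-beta1 than in control cells, was at 87.0, 97.7 and 111 CPM in TGF-beta1 cells against 121, 117 and 94.6 CPM in 2D-EV cells, against 216 to 291 CPM in control cells. Its log2 difference of 0.17 had an interval of -0.07 to 0.40. Tgfb1 itself measured 187 ± 1.00 and 174 ± 7.31 CPM (SD, n = 3), a log2 difference of -0.11 with an edgeR unadjusted p of 0.0392 and adjusted p of 0.659. Of the injury markers, Lcn2 (the iron-binding protein NGAL) was at 7.76, 8.18 and 7.97 CPM in TGF-beta1 cells and 11.3, 8.72 and 9.58 CPM in 2D-EV cells (log2 0.31, adjusted p = 0.546). Havcr1, which encodes KIM-1, had a count of 0 in all 6 libraries, and Cdh1 (E-cadherin) was at 0.110 to 0.46 CPM, with an interval of -1.38 to 1.14 for its log2 difference.

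Contractile and mesenchymal genes had the largest share of members lower among the 29 lists. The lists were chosen with earlier results of these data known, so this ranking is no independent support. Of 31 tested members of this list, 1 fell (Acta2) and 30 did not pass in edgeR. DESeq2 called Acta2 and also Cald1, Tagln, Flna, Actn1, Myh9 and Cnn2 lower. At an unadjusted p below 0.05 in edgeR, 14 were lower and 0 were higher, while 3.64% of all genes were lower at that level. The median log2 difference of the list was -0.098, against 0.0014 over all genes tested. The 14 were Acta2, Cald1, Tagln, Flna, Actn1, Myh9, Cnn2, Snai1, Vcl, Tpm4, Srf, Actn4, Cnn1 and Zyx, most of which encode parts of stress fibres and focal adhesions. Flna (filamin A, which crosslinks actin) measured 1224 ± 19.5 and 1124 ± 12.5 CPM (log2 -0.12), Actn1 (alpha-actinin) 285 ± 8.95 and 251 ± 5.79 CPM (log2 -0.19), and Myh9 (nonmuscle myosin heavy chain) 1689.8 ± 46.8 and 1532 ± 42.7 CPM (log2 -0.14; all SD, n = 3). Snai1, a transcription factor that represses epithelial genes, was at 29.8 to 31.3 CPM in TGF-beta1 cells and 25.3 to 27.2 CPM in 2D-EV cells. With a library left out, 11 to 15 of the members were lower at an unadjusted p below 0.05, and under the other settings tried 12 to 14. In the fits with a library left out, 0 to 2 were higher, with the 2 found without 2D-EV library 1.

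Targets and feedback genes of TGF-beta held 1 gene that fell, Ccn2, among 27 tested. At an unadjusted p below 0.05, 8 were lower and 2 higher (3.64% and 3.46% of all genes), with a median log2 difference of -0.036. Smad7, the inhibitory Smad that TGF-beta induces against its own receptor, was at 135, 122 and 129 CPM in TGF-beta1 cells and 112, 116 and 105 CPM in 2D-EV cells, without overlap (log2 -0.22, edgeR adjusted p = 0.15). Pmepa1, a membrane protein of the same feedback, measured 209.8 ± 0.69 and 192 ± 5.28 CPM (SD, n = 3; log2 -0.13). Id2 and Klf10, transcription regulators of this list, had the other sign, with log2 differences of 0.16 and 0.15. Both were lower in TGF-beta1 than in control cells, with log2 differences of -0.43 and -0.41. Of 30 ligands, receptors and Smads, 0 passed, 5 were lower and 0 higher at an unadjusted p below 0.05: Smad3 (a receptor-activated Smad, log2 -0.20), Fst (follistatin, an activin antagonist, -0.12), the receptors Acvr1 and Bmpr2 (both -0.14), and Tgfb1.

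YAP and mechanical targets held 28 tested genes, of which Ccn2 fell, with a median log2 difference of -0.056. At an unadjusted p below 0.05, 8 were lower and 0 higher, against 3.64% and 3.46% of all genes. Ankrd1 (a nuclear cofactor induced by stretch) was at 75.2, 64.3 and 66.7 CPM in TGF-beta1 cells and 49.8, 55.8 and 63.7 CPM in 2D-EV cells, a log2 difference of -0.29. F3, the coagulation initiator tissue factor, measured 515 ± 11.2 and 486 ± 3.93 CPM (SD, n = 3; log2 -0.09). With 1 library left out, between 4 and 10 of the list were lower at this level: 4 without 2D-EV library 1, 5 without TGF-beta1 library 2 or 3, and 7 to 10 in the other 3 fits. Some genes, among them Ccn2, Ccn1, Snai1, F3 and Plaur, stand in more than 1 list, so the lists are not independent of each other.

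Endothelin, thrombin and vasoactive genes held 15 tested members, with 0 that passed and a median log2 difference of -0.12. At an unadjusted p below 0.05, 4 were lower (F2r, Edn1, F2rl1 and F3), where 3.64% of all genes were lower and 3.46% higher. F2rl1, the protease-activated receptor PAR2, measured 116 ± 4.40 and 102 ± 2.17 CPM (SD, n = 3; log2 -0.18). Of 35 immediate early and feedback genes, 7 were lower and 2 higher at that level. With 1 library left out, 5 to 7 were lower and 0 to 2 higher, with 0 higher in 4 of the 6 fits. Hbegf, a ligand of the EGF receptor, was at 211, 183 and 193 CPM in TGF-beta1 cells and 169, 168 and 165 CPM in 2D-EV cells (log2 -0.23), and Phlda1 had a log2 difference of -0.25. Of 18 tubular injury genes, 4 were lower and 2 higher, and Plaur (the urokinase receptor, log2 -0.21) and Tnfrsf12a (the TWEAK receptor, -0.14) were among the former.

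Of 41 tested extracellular matrix genes, 0 passed, with a median log2 difference of -0.022. At an unadjusted p below 0.05, 5 were lower (12.2%) and 2 higher (4.88%), against 3.64% and 3.46% of all genes. Lama3 (a laminin chain of epithelial basement membranes) measured 138 ± 9.07 and 120 ± 3.75 CPM (log2 -0.21), and Fbln2 (fibulin-2, an elastic fibre protein) 164 ± 0.15 and 149 ± 5.77 CPM (SD, n = 3; log2 -0.14). Of 28 remodelling enzymes, 3 were lower (among them Plaur and Lox, the collagen crosslinking oxidase, log2 -0.11) and 2 higher at that level.

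Some lists had more members higher than lower, and 0 of these members passed the test. Of 30 fatty acid oxidation genes, 4 were higher and 0 lower at an unadjusted p below 0.05 (Hadh, Ech1, Decr1 and Acadm), against 3.46% of all genes higher. Hadh, which encodes a mitochondrial dehydrogenase of this pathway, was at 21.2, 22.4 and 19.7 CPM in TGF-beta1 cells, 27.2, 22.8 and 25.9 CPM in 2D-EV cells, and 27.1 to 29.4 CPM in control cells (log2 0.26). Of 29 NRF2 and oxidative stress genes, 4 were higher and 0 lower, with Nqo1 (a quinone reductase) at 144 ± 5.42 and 156 ± 3.46 CPM (SD, n = 3; log2 0.11). Of 33 interferon and MHC class I genes, 5 were higher and 1 lower, with a median log2 difference of 0.070 and Nlrc5, the transactivator of MHC class I, at 0.30. Of 16 clock genes, 3 were higher (Dbp, Hlf and Per3), with Dbp, a clock output factor, at a log2 difference of 0.26. Of 40 cell cycle genes and 32 lysosome and endocytosis genes, 0 differed in either direction at an unadjusted p below 0.05.

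**Figure D3:**
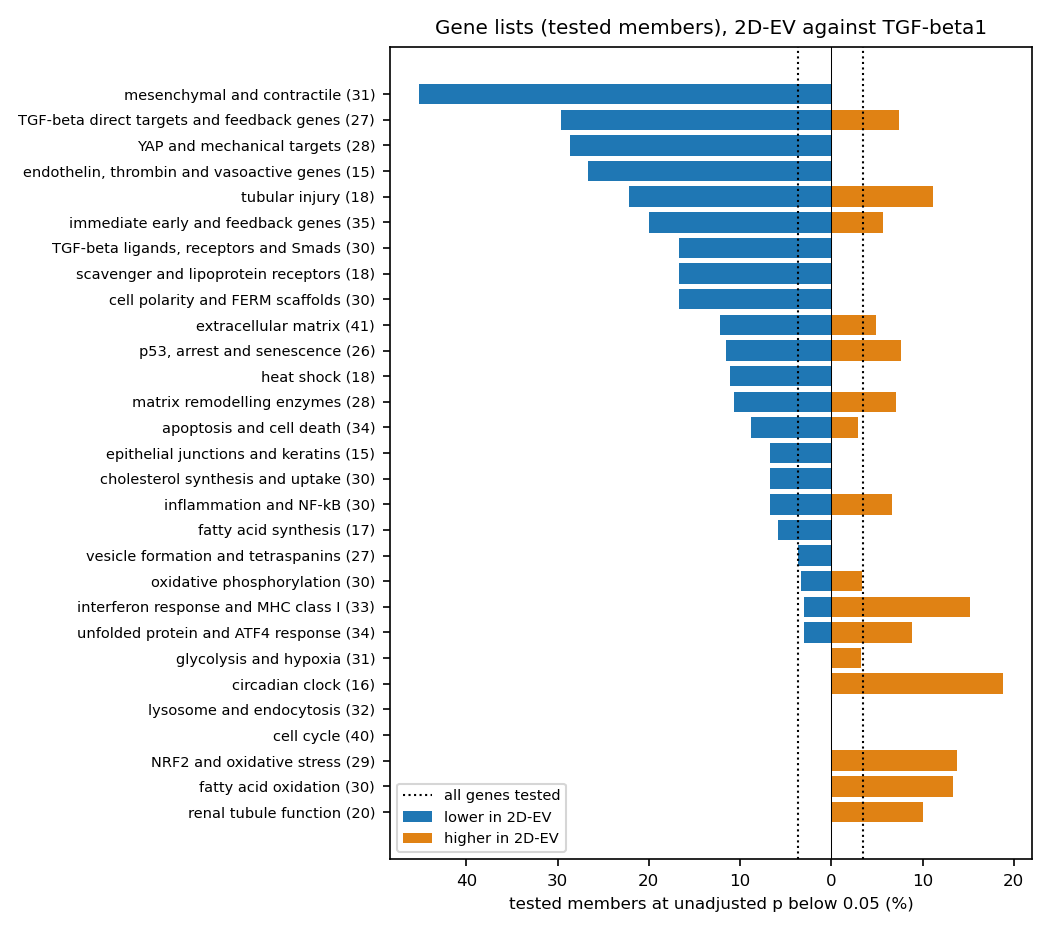
Share of tested members of each of the 29 response lists at an unadjusted p below 0.05, drawn to the left for genes lower and to the right for genes higher in 2D-EV cells, with the number of tested members in brackets and the share over all genes as dotted lines (3.64% and 3.46%). The mesenchymal and contractile list has the longest bar, at 45.2% lower. The lists were chosen with earlier results of these data known.

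The intervals show how large a difference may have been missed. They rest on a spread between libraries that may be technical, so they may be too narrow. Among the 9236 genes with at least 10 CPM in either group, the 95% interval of the difference lay within 1.5-fold either way for 98.6% and within 2-fold for 99.6%. The median absolute log2 difference at that level was 0.046, against 0.099 for TGF-beta1 against control cells, a comparison that shares the TGF-beta1 libraries and called 3124 genes (22%). Below 10 CPM intervals were wider, and over all tested genes 76.3% lay within 1.5-fold. Ccn2 and Acta2 were 1.18- and 1.19-fold lower in 2D-EV than in TGF-beta1 cells, less than either bound. An interval within 1.5-fold therefore does not exclude a difference of the size found for Ccn2 and Acta2.

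**Figure D4:**
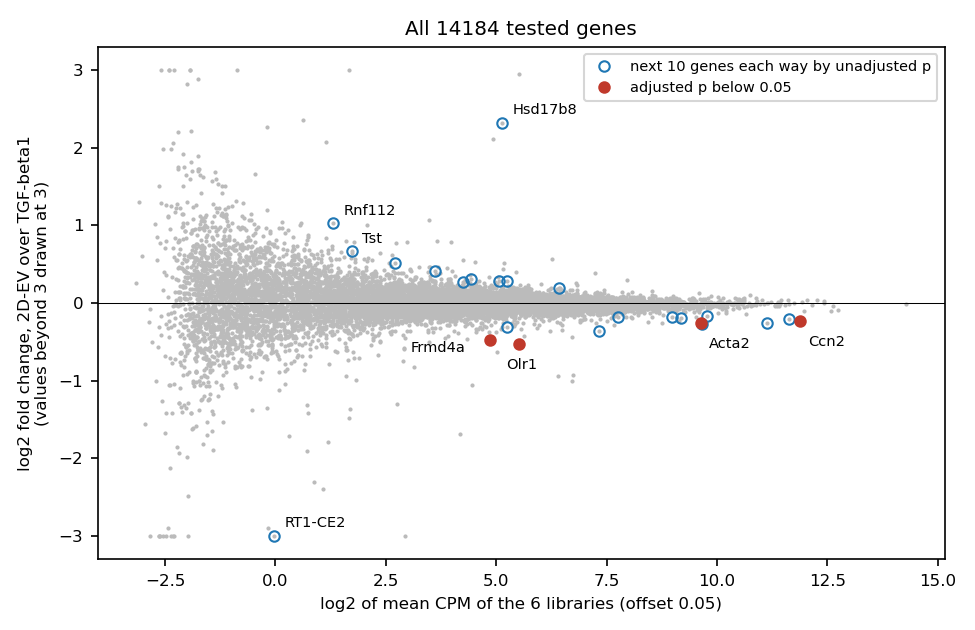
Log2 fold change of 2D-EV over TGF-beta1 cells against the log2 mean CPM of the 6 libraries for the 14184 tested genes (grey), with the 4 that passed (red) and the next 10 in each direction by unadjusted p (blue circles). The red points are of moderate or high level and small fold, and most of the wide scatter is at low CPM.

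Genes that TGF-beta1 moved most are given next, some with levels and some with log2 differences only. They were picked with the same TGF-beta1 libraries that 2D-EV cells are then set against. Some shift of 2D-EV cells back toward control levels is therefore built in. Against control cells, 2D-EV cells still had 2642 genes (18.6%) past the threshold, 1489 higher (10.5%) and 1153 lower (8.13%). This majority of higher genes rests on the scaling, since plain library totals called 1086 higher and 1701 lower. Fbln2 had 41.1 to 47.8 CPM in control cells, 164 in each TGF-beta1 library, and 143 to 154 CPM in 2D-EV cells. Rdh16, a retinol dehydrogenase gene, had 4.97 to 5.69 CPM in control, 20.6 to 22.5 CPM in TGF-beta1 and 15.7 to 19.9 CPM in 2D-EV cells (log2 -0.29 between the latter). Nppb, which encodes the natriuretic peptide BNP, Ctsf (cathepsin F) and Selp (P-selectin) had log2 differences of -0.11, -0.13 and 0.04 between 2D-EV and TGF-beta1 cells. Among the genes TGF-beta1 lowered, Aldh3a1 (an aldehyde dehydrogenase) had 15.1 to 18.4 CPM in control, 3.91 to 4.53 CPM in TGF-beta1 and 4.25 to 7.35 CPM in 2D-EV cells, and Rspo1 (a Wnt agonist) 9.86 to 11.8, 3.15 to 3.74 and 3.57 to 5.34 CPM. The transcription factor gene Plagl1 and the membrane protein gene Tmem176a each had a log2 difference of 0.02, and none of the genes named in this paragraph passed the test.

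The vesicle preparations were compared directly, since a call against TGF-beta1 cells in one and not the other is no test of their difference. A single gene of 14184 (0.00705%) passed between 3D-EV and 2D-EV cells: Ccn2, which was higher in 3D-EV cells. It was at 4067, 4139 and 4012 CPM in the 3D-EV libraries, all above the 2D-EV libraries of 3385 to 3530 CPM, a log2 difference of 0.24 ± 0.03 (SE; 95% interval 0.18 to 0.29, edgeR adjusted p = 0.00189). Acta2 was at 826, 837 and 853 CPM in 3D-EV cells, also above every 2D-EV library, with a log2 difference of 0.21 (interval 0.14 to 0.28, adjusted p = 0.0698) that did not pass. Olr1 and Frmd4a measured 48.5 ± 3.28 and 31.0 ± 1.32 CPM in 3D-EV cells (SD, n = 3), with intervals of the difference from 2D-EV cells of 0.23 to 0.54 and 0.21 to 0.50 and an edgeR adjusted p of 0.159 for both. Of the 31 mesenchymal and contractile genes, 10 were higher and 0 lower in 3D-EV than in 2D-EV cells at an unadjusted p below 0.05, where 3.31% of all genes were higher and 3.59% lower. This comparison shares the 2D-EV libraries with the first, so its direction is not separate evidence.

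The differences of Hsd17b8 and a neighbouring gene had opposite signs. Hsd17b8, a mitochondrial fatty acid synthesis dehydrogenase gene, was at 15.5, 10.9 and 8.55 CPM in TGF-beta1 cells against 67.4, 62.3 and 45.2 CPM in 2D-EV cells, a log2 difference of 2.33 (edgeR adjusted p = 0.101). Slc39a7, a zinc transporter gene and the next protein-coding gene in the RefSeq order, was at 128, 122 and 110 CPM and at 90.9, 70.6 and 105 CPM. Their sum was 119 to 144 CPM in TGF-beta1 cells and 133 to 158 CPM in 2D-EV cells, so the groups of sums overlapped where those of Hsd17b8 did not. A pair chosen after its values were seen, Mterf2 and its neighbour Tmem263, showed the same within a group: Mterf2 was at 4.96 CPM in the first 2D-EV library and 110 and 127 CPM in the others, Tmem263 at 140.2, 39.4 and 30.8 CPM, and their sum at 145 to 158 CPM. How reads were assigned between neighbours was not tested. RT1-CE2, an MHC class I gene with near-identical paralogs that can share its reads, was at 1.63 to 2.10 CPM in TGF-beta1 cells and had 0 counts in each 2D-EV library, at least 20.2-fold lower than in TGF-beta1 cells against a floor of 3 counts per library. It was also at 0 in 1 of the 3 control libraries, and its edgeR adjusted p was 0.101. In a fit of the 6 libraries of the comparison alone, the edgeR adjusted p was 0.000969 for Hsd17b8 and 0.00207 for RT1-CE2. DESeq2 and an edgeR test of every gene with a count also called both.

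**Figure D5:**
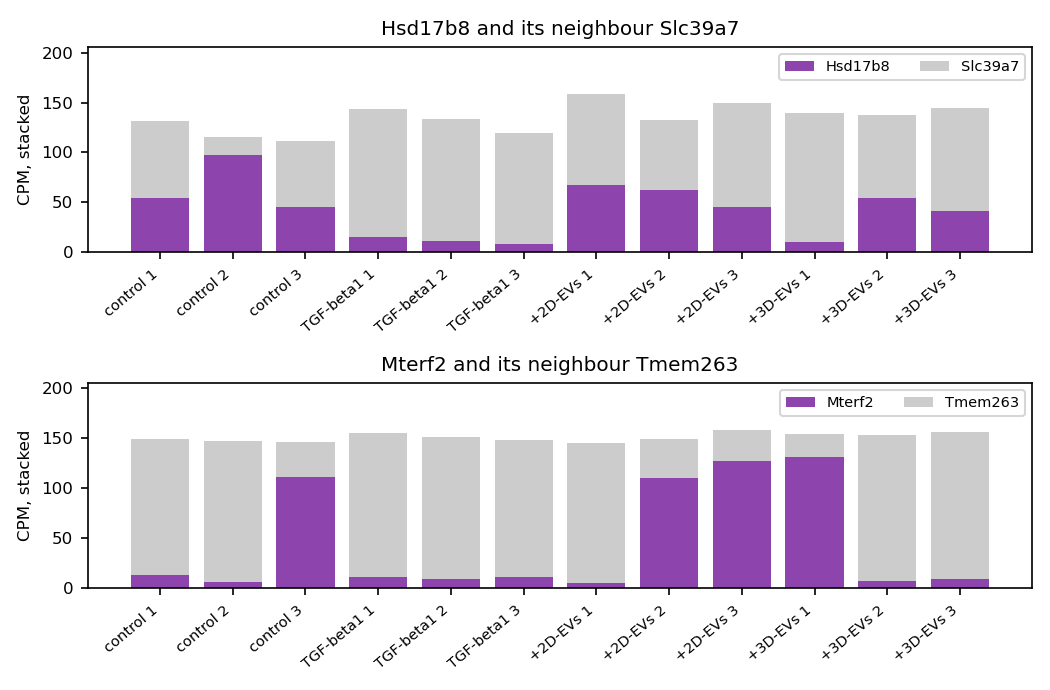
Stacked CPM of Hsd17b8 with Slc39a7 and of Mterf2 with Tmem263 in each of the 12 libraries, on axes that start at 0. The total of Mterf2 and Tmem263 stays between 145 and 158 CPM while the share of Mterf2 jumps between libraries of 1 group.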

How the data were processed

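RNA was sequenced in 12 libraries of NRK-52E cells, 3 in each of 4 groups taken from the labels. The deposited values are raw counts per gene, made by the authors with fastp, HISAT2 and StringTie on mRatBN7.2, with DESeq2 also named, per the submitters' processing notes, in versions not given in the sources used here. Whether counting used strand is not given either. Of 24660 genes, 14184 passed filterByExpr with a minimum count of 10, and 5394 were at 0 throughout. edgeR 4.0.16 in R 4.3.3 fitted all 12 libraries as group means with TMM factors and tested contrasts by the quasi-likelihood F-test, with Benjamini-Hochberg adjustment over all tested genes and a threshold of 0.05. The submitters' DESeq2 (1.42.0 here) and limma-voom (limma 3.58.1) served as alternatives. The fit was also run on simulated counts with 200 changed genes, drawn with the spread that the fit itself had estimated. The outcome is not given here and backs no result above. For pairs of libraries of a group, chi-square per degree of freedom was 6.82 to 10.9, so no library was a copy of another. Floors and shares cover counting error only.

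Named genes were all calls, the next 10 genes each way by p (at least 1 CPM, no overlap, a symbol), a panel of fibrosis genes (among them Acta2, Tagln, Col1a1, Col3a1, Fn1, Vim, Cdh1, Ccn2, Tgfb1, Thbs1, Havcr1, Lcn2 and Spp1), up to 2 members of each list in either direction, and the 6 largest rises and falls after TGF-beta1 at 10 CPM or more. Some genes of this rule are not reported. Other list members, the neighbour genes and the motifs were chosen after their values were seen. The members and the 29 response and 10 marker lists were chosen with earlier results of these data known. No set test was run. Of 24660 names, 16794 matched a RefSeq table on GRCr8, used for gene order.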

Additional observations from a re-analysis of the deposited data

Results flagged for a closer look

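Ccn2 differed between the vesicle preparations, with a test of the difference itself. It was higher in 3D-EV than in 2D-EV cells by 0.24 on the log2 scale (edgeR adjusted p = 0.00189), higher in 3 of 3 libraries, and it passed in each of the 6 fits that left out a TGF-beta1 or 2D-EV library. Fits without a TGF-beta1 library keep every library of this comparison, so only those without a 2D-EV library bear on it. No 3D-EV library was left out in turn.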

How the results depend on the processing

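Against the 4 genes called between 2D-EV and TGF-beta1 cells, a fit of the 6 libraries alone called 7 (2 higher, 5 lower, with 3 of the 4 kept), limma-voom 9, limma-voom with sample weights 10, a test of every gene with a count 14 and DESeq2 56. Apart from the 6-library fit, which lost Frmd4a, these settings kept all 4. Hsd17b8 (edgeR adjusted p = 0.000969) and RT1-CE2 (0.00207) were called by the 6-library fit. Both were also called by DESeq2 (DESeq2 adjusted p = 0.0132 and 0.00111) and by the test of every gene with a count (edgeR adjusted p = 0.00336 for both). RLE factors, plain library totals and a minimum count of 50 called 4. With a library left out, 1 to 3 genes were called. The cause of these differences in number was not tested. Between 3D-EV and 2D-EV cells, 1 gene was called by the main fit, 2 by limma-voom with or without weights, 8 among every gene with a count and 21 by DESeq2. Between 2D-EV and control cells, plain library totals called 2787 genes (1086 higher, 1701 lower), against 2642 (1489 and 1153) with TMM factors, and 2239 were called by both. Between TGF-beta1 and control cells they called 1144 higher and 2243 lower, against 1676 and 1448. Cdh1 changed sign with limma-voom (0.025) and Tmem176a with sample weights (-0.0053). With a library left out, log2 differences ran from -0.080 to 0.11 for Col1a1, -0.11 to 0.00076 for Fn1, -0.53 to 0.22 for Cdh1, -0.019 to 0.080 for Selp, -0.031 to 0.046 for Plagl1 and -0.086 to 0.093 for Tmem176a, so these have no direction.

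Libraries with the same number in 2D-EV and TGF-beta1 cells had residuals that correlated by -0.077, 0.041 and -0.071, so the numbers do not pair them. With a replicate block 4 genes were called, all 4 kept, and 2 between 3D-EV and 2D-EV cells.

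Intervals were wider below 10 CPM, and whether depth or the number of libraries limits a gene was not tested.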

Other observations

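Further lists are given with the shares of their tested members. Of 26 tested p53, arrest and senescence genes, 3 were lower (11.5%) and 2 higher (7.69%) than in TGF-beta1 cells at an unadjusted p below 0.05. Of these 26, 0 passed the edgeR test. Of 34 apoptosis and cell death genes, 3 were lower (8.82%) and 1 higher (2.94%) at that level, where 3.64% of all genes were lower and 3.46% higher. Pmaip1, which encodes the pro-apoptotic protein NOXA, measured 182 ± 0.89 and 166 ± 3.69 CPM (SD, n = 3; log2 -0.13), and the stress sensor gene Gadd45b 70.5 ± 1.83 and 63.4 ± 3.00 CPM (log2 -0.15). Of 18 heat shock genes, 2 were lower (11.1%) and 0 higher at that level, with a median log2 difference of -0.026. Of the mitochondrially encoded and the ribosomal protein markers, 0 differed at that level.

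At 10 CPM or more, 8 genes differed by at least 2-fold between 2D-EV and TGF-beta1 cells, and 0 of them passed in the main fit. Dohh, the last enzyme of hypusine synthesis, was at 10.1, 11.9 and 11.9 CPM in TGF-beta1 cells against 62.4, 10.9 and 73.9 CPM in 2D-EV cells, so 1 of the 3 vesicle libraries had the level of TGF-beta1 cells. Mybbp1a, a nucleolar protein gene, was at 0.029, 24.7 and 18.0 CPM in TGF-beta1 cells against 1.34, 1.56 and 0 CPM in 2D-EV cells, and in control cells it ranged from 0 to 25.7 CPM. Glyr1, a chromatin reader, was called higher by edgeR only without the second TGF-beta1 library (log2 0.40, adjusted p = 0.00229), in which it was at 121 CPM against 93.0 and 90.6 CPM in the other TGF-beta1 libraries. These genes were chosen after their values were seen.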
